A study of Mus musculus with 6 samples.

Results

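A set of 8 genes was followed here in 6 RNA-seq libraries of mouse intestinal epithelium, chosen by symbol because they mark B cells, plasma cells or the epithelial receptor for their antibodies. All 8 members were found among the 18159 genes of the deposited table. They comprise 4 genes of follicle B cells (Cd79a, Cd79b, Ms4a1 and Pou2af1), 3 genes of plasma cells (Jchain, Mzb1 and Tnfrsf17) and the receptor gene Pigr. The mice were 12 days old. By title, 3 libraries are wild-type and 3 are Git2-knockout. Titles describe isolated intestinal epithelial cells, the series' design text speaks of enteroids (epithelial organoids grown from crypts), and the genotype field says knockdown where the titles say knockout. No source used here gives the strain, the altered part of Git2 or a Cre driver. Whether the 3 libraries of a group stem from 3 animals is not stated, and the p-values below measure only how far these libraries differ from each other, a spread that can be technical.

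B cells carry an antibody on their surface that signals through the paired proteins Cd79a and Cd79b, and in the gut they gather in lymphoid follicles. Plasma cells, their descendants, secrete antibody, and in the gut wall they join IgA units with the J chain encoded by Jchain. Pigr, made by epithelial cells, binds J chain-containing IgA at the base of the cell and carries it into the lumen, where part of the receptor stays attached as the secretory component. In suckling mice most intestinal IgA comes with the milk, and the pup's own plasma cells accumulate later.

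Promoter sequences are shown for Cd79a and Pigr, the B cell and the epithelial member that fell with the smallest p-values. RefSeq promoter windows of the GRCm38.p6 assembly matched 5 of the 8 members, and the 250 bases before the annotated start are printed 5′ to 3′ on the gene's strand. Capitals mark matches, on either strand, to the motifs searched: the octamer ATTTGCAT, which Oct factors bind together with the Pou2af1 protein, CAAGGGAAT, the binding site of the B cell factor Ebf1 known from the Cd79a promoter itself, the E-box CACGTG, and the ETS core AGGAAGT.

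Cd79a, chr7:24897247-24897496, plus strand: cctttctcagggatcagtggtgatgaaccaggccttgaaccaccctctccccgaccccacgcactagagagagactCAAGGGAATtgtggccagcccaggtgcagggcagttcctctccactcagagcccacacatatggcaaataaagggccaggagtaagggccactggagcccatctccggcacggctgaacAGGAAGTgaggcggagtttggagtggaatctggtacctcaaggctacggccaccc
Pigr, chr1:130826434-130826683, plus strand: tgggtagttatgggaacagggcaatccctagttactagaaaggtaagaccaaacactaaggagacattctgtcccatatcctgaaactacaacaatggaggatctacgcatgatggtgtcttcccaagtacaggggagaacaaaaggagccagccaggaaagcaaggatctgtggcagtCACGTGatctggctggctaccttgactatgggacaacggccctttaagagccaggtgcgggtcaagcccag

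The Ebf1 letters stood at bases -174 to -166 of Cd79a and the ETS core at -55 to -49. Pigr held the E-box at -71 to -66. Of 32851 promoter windows of this length, 0.225% held the Ebf1 letters, 7.69% the ETS core, 6.02% the E-box and 1.6% the octamer. The octamer was in none of the 5 windows searched (Cd79a, Pou2af1, Jchain, Tnfrsf17 and Pigr). These matches are letters in a reference sequence, and no binding was measured here.

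Total estimated reads were 18753649 to 19106581 in wild-type and 16284414 to 16837158 in the group titled Git2-knockout. Git2 itself was at 22.2, 23.7 and 22.7 CPM (counts scaled to library size and composition) in wild-type and at 17.4, 15.5 and 16.8 CPM in the other group. Its transcript was therefore still present, and groups are named by their labels below. The epithelial identity of the samples was visible in Epcam, at 2495 ± 15.1 and 2509 ± 90.8 CPM (SD, n = 3 each). Of 13558 genes tested by edgeR's quasi-likelihood test, 57.0% passed a Benjamini-Hochberg adjusted p of 0.05, with 27.4% falling and 29.6% rising. A call is therefore common in these data, and sizes are given beside each one. Rises made up 51.9% of these calls. On the log2(TPM + 1) scale, where the median gene shifted to 0.14, they made up 75.1%, with the length trend removed 40.8%, and with length and GC trends both removed 37.7%.

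Of the 8 members 4 fell in the Git2-knockout group, namely Cd79a, Cd79b, Ms4a1 and Pigr, and 0 rose. Over all tested genes 27.4% fell, a share of tested genes only, whereas the 8 members include 3 that were not tested. The same 4 members had groups without overlap, which held for 30.6% of tested genes in the falling direction and for 62.9% in either direction. Cd79a, Cd79b and Pigr were lower by more than 2-fold, a size and call shared by 0.966% of tested genes. Pou2af1 was lower on average without passing the test, and the 3 plasma cell genes had too few reads to test. The plot of members by library shows these levels.

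**Figure D1:**
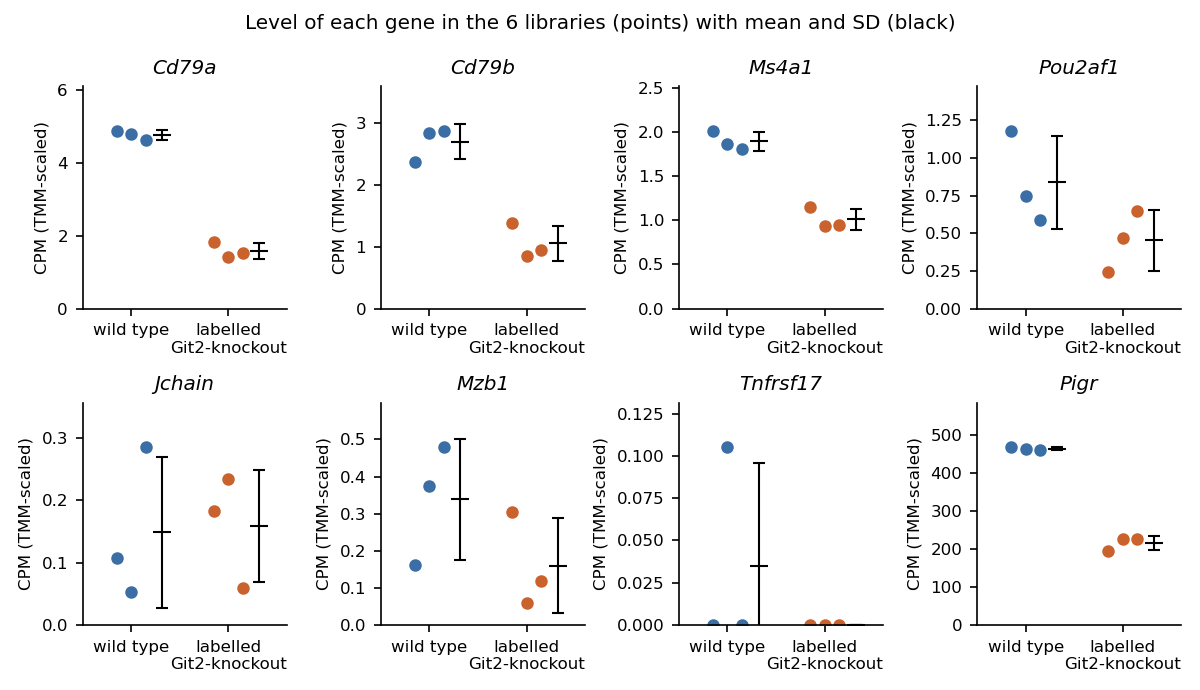
CPM of each of the 8 genes in 3 wild-type (blue) and 3 Git2-knockout-labelled (orange) libraries, with the mean and SD in black and a separate axis from 0 for each gene. The groups do not overlap for Cd79a, Cd79b, Ms4a1 and Pigr, and they overlap for Pou2af1, Jchain, Mzb1 and Tnfrsf17.

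Levels spanned more than 3 orders of magnitude. Per transcript length, in wild-type mean TPM (a length-scaled share of all transcripts), Pigr stood at 247 ± 4.28, Cd79a at 10.1 ± 0.372, Cd79b at 4.68 ± 0.524 and Ms4a1 at 1.31 ± 0.0874 (SD, n = 3 each). Mzb1 at 0.793 ± 0.378, Pou2af1 at 0.677 ± 0.254 and Jchain at 0.147 ± 0.119 TPM followed, and Tnfrsf17 was above 0 in a single library at 0.28 TPM. The ranges of Mzb1 and Pou2af1 overlapped, as did those of Jchain and Tnfrsf17, while all other neighbours in this order were separate in wild-type. By wild-type TPM Pigr was gene 687 of the table and Cd79a gene 8359.

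Cd79a encodes the Ig-alpha signalling chain of the B cell receptor. Wild-type libraries held 4.90, 4.80 and 4.63 CPM, and the group titled Git2-knockout held 1.82, 1.41 and 1.53 CPM. Each wild-type library was more than 2-fold above every library of the second group. The level in the second group was 33.2% of wild-type (95% interval 26.2% to 42.1%), a log2 fold change of -1.59 (SE 0.16, edgeR, adjusted p = 5.63e-07). This rested on 268 reads over the wild-type libraries and 80 over the others.

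Cd79b, the Ig-beta partner chain, was at 2.37, 2.83 and 2.87 CPM in wild-type and at 1.37, 0.846 and 0.942 CPM in the other group. The lowest wild-type library stayed above the highest of the others. Its log2 fold change was -1.35 (SE 0.22, edgeR, adjusted p = 8.67e-05), or 39.2% of wild-type (95% interval 28.2% to 54.5%). Within each library Cd79b stood at 0.390 to 0.523 of the Cd79a TPM in wild-type and at 0.484 to 0.610 in the other group, overlapping ranges.

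Ms4a1 encodes CD20, a membrane protein of mature B cells that plasma cells lose. It was at 2.02, 1.87 and 1.81 CPM in wild-type and at 1.15, 0.937 and 0.942 CPM in the Git2-knockout group. The groups were separate, and the log2 fold change was -0.91 (SE 0.22, edgeR, adjusted p = 0.00235). On the log2(TPM + 1) scale, which understates changes of low genes, it was -0.38. The ratio of Ms4a1 to Cd79a in TPM was 0.127 to 0.134 in wild-type libraries and 0.199 to 0.217 in the others, without overlap.

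The gap between the falls of Ms4a1 and Cd79a depended on the processing. The deposited values imply a length of 2941 bases for Ms4a1, 953 for Cd79a and 1164 for Cd79b, and the GC content of their transcripts was 41.2%, 54.9% and 53.8%. With the length trend alone removed Ms4a1 still fell less than Cd79a (log2 fold change -0.98 against -1.36). The same held with the GC trend alone removed (-1.30 against -1.49). With both removed the values were -1.23 for Cd79a, -1.07 for Cd79b and -1.27 for Ms4a1. Cd79a and Ms4a1 then differed by less than either SE of the reported fit (0.16 and 0.22), so no order is read from them. All 3 stayed below wild-type.

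Pou2af1 encodes OCA-B, the B cell partner of Oct factors, which is needed for germinal centres. It was at 1.18, 0.748 and 0.585 CPM in wild-type and at 0.243, 0.469 and 0.648 CPM in the other group, and the ranges overlapped. The log2 fold change of -0.87 (SE 0.40) did not pass the test (edgeR, adjusted p = 0.0725), and its 95% interval ran from 30.5% to 98.1% of wild-type. Pou2af1 passed the expression filter only through the wild-type libraries. With Git2-knockout replicate 3 left out it passed (log2 fold change -1.23, adjusted p = 0.0431), as it did with the GC trend removed (adjusted p = 0.0488). Without wild-type replicate 1, the library with the highest level, the log2 fold change was -0.55 (adjusted p = 0.312).

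Plasma cell genes were near the limit of detection in both groups. Jchain, whose protein links IgA units, had 2, 1 and 5.36 estimated reads in wild-type, against 3, 4 and 1 in the Git2-knockout group. Mzb1, a chaperone of the endoplasmic reticulum that serves antibody assembly, had 3, 7 and 9.01 reads in wild-type, against 5, 1 and 2. Tnfrsf17, the survival receptor BCMA of plasma cells, had 1.97 reads in wild-type replicate 2 and 0 in the other 5 libraries. All 3 were removed by the expression filter.

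Over the pooled reads of each group, Mzb1 stood at 0.468 times wild-type with a 95% counting interval of 0.177 to 1.12, on 8 reads against 19. Jchain stood at 1.11 times wild-type with an interval of 0.363 to 3.39, on 8 reads in each group. For Tnfrsf17 the 0 reads of the Git2-knockout group allow up to 0.0594 CPM (3 reads over the group), above the 0.0356 CPM measured in wild-type, and no fold is given. These exact intervals cover counting error only. A halving of Mzb1, a halving of Jchain and a doubling of Jchain all lie inside them, so changes of that size were not detectable at this depth. With no expression filter edgeR gave adjusted p = 0.213 for Mzb1, 0.921 for Jchain and 0.331 for Tnfrsf17.

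Whether the plasma cell gene moved differently from the follicle gene was asked within each library, where scaling between libraries drops out. The log2 ratio of Jchain to Cd79a (0.5 reads added to each) was -5.19, -5.91 and -3.90 in wild-type, against -3.12, -2.44 and -4.14. Wild-type replicate 3 lay among the Git2-knockout group. The means differed by 1.77, with p = 0.20 in an exact two-sided permutation test that cannot go below 0.10 with 3 libraries a group (0.20 after adjustment over 2 ratios). A different course of Jchain and Cd79a was therefore not shown, and with 1 to 5.36 Jchain reads a library it was not shown that they moved alike either. In TPM (0.1 added to each) the difference was 1.62, with p = 0.10 in the same exact test.

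Pigr was the abundant member and was lower in the Git2-knockout group by a factor of 2.15. It was at 468, 464 and 461 CPM in wild-type and at 194, 227 and 227 CPM in the other group. The 3 wild-type libraries lay within 8 CPM of each other, and replicate 1 of the second group was the lowest. Pigr stood at 46.6% of wild-type (95% interval 43.1% to 50.3%), a log2 fold change of -1.10 (SE 0.05, edgeR, adjusted p = 4.19e-10). Of the 293 tested genes with at least the wild-type CPM of Pigr, itself included, 3 had a fold change this low: Pigr, Lypd8, an antibacterial protein of the gut epithelium, and Rbp2, the retinol-binding protein of enterocytes. Lypd8 and Rbp2 were named after their values were seen.

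Epithelial markers served as the reference for Pigr. Of 10 epithelial markers 8 fell and 0 rose, with a median log2 fold change of -0.24. Over all genes tested 27.4% fell, 29.6% rose and the median was 0.02. On the log2(TPM + 1) scale, and likewise with the GC trend removed, 5 fell and 2 rose, and with length and GC trends both removed 4 fell and 3 rose (median -0.06). Krt19 (-0.65), Elf3 (-0.39), Krt8 (-0.30) and Krt20 (-0.33) had the smallest p, though Krt8 lost its call with both trends removed (adjusted p = 0.0520). Cdh1, the adhesion molecule E-cadherin, was at 805 ± 3.70 and 855 ± 37.6 CPM (edgeR, adjusted p = 0.0638). Its log2 fold change of 0.09 was the highest of the 10 markers, so the ratio to Cdh1 below gives a larger gap than the -1.10 of Pigr alone. The summed markers ran from 10088 to 10532 CPM in wild-type and from 9031 to 9287 CPM in the other group. The log2 ratio of Pigr to Cdh1 within a library was -0.77, -0.80 and -0.81 in wild-type, against -2.07, -1.94 and -1.96. The groups were separate, and the difference of -1.19 had p = 0.10 in an exact two-sided permutation test, the smallest value that 3 libraries a group allow (0.20 after adjustment over 2 ratios).

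**Figure D2:**
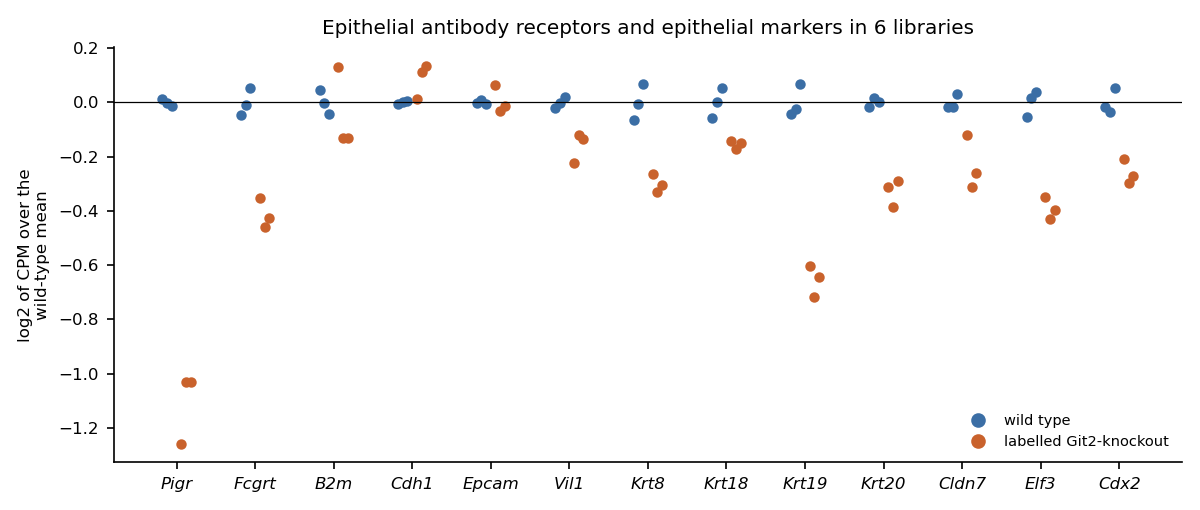
Log2 of CPM over the wild-type mean for Pigr, the other antibody receptor genes Fcgrt and B2m, and 10 epithelial markers, each point 1 of 3 wild-type (blue) or 3 Git2-knockout-labelled (orange) libraries. Pigr lies lowest, near -1.1, Krt19 follows near -0.65, and Epcam, Cdh1 and B2m have points of the second group at or above the wild-type mean.

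Genes of antibody transport and of Pigr regulation changed by small amounts, apart from Fcer2a (-0.92), described below with the B cell genes. Of 31 such genes tested 15 fell and 4 rose, with a median log2 fold change of -0.12, while 27.4% of all tested genes fell and 29.6% rose. Fcgrt, the heavy chain of the neonatal Fc receptor that takes up milk IgG in suckling rodents, fell from 2022 ± 71.5 to 1519 ± 58.3 CPM (log2 fold change -0.41, edgeR, adjusted p = 2.81e-07). B2m, its light chain, was at 571 ± 17.7 and 556 ± 59.7 CPM (adjusted p = 0.633). The E-box factor gene Usf2 (-0.38) fell and the apical syntaxin gene Stx3 (0.28) rose, and Fcgrt, Usf2 and Stx3 passed under all 19 alternatives.

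Other calls of this list, that of Fcer2a aside, depended on the processing. Rab17, a small GTPase of transcytosis (-0.28), the tumour necrosis factor receptor Tnfrsf1a (-0.20) and the Toll pathway adaptors Myd88 (-0.26) and Ticam1 (-0.22) fell, and each lost its call with length and GC trends both removed or with the GC trend removed. Rab11fip5, an effector of recycling endosomes, rose (0.19) and lay at -0.02 with the length trend removed. The nuclear receptor Hnf4a (-0.07, adjusted p = 0.123) and the interleukin receptor Il4ra (-0.01, adjusted p = 0.902) did not pass. On the log2(TPM + 1) scale 4 genes of the list fell and 9 rose with a median of 0.04, and with the GC trend removed 8 fell and 4 rose.

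A wider set of B cell genes was examined next. Of 27 tested genes of a B cell list without the members, 16 fell and 0 rose, with a median log2 fold change of -0.75. Over all genes tested 27.4% fell, 29.6% rose and the median was 0.02. Of these 16, 7 passed the expression filter only through the wild-type libraries. Among the 20 tested genes that did not depend on them, 9 fell and the median was -0.47. With DESeq2 8 of the list fell and 0 rose. On the log2(TPM + 1) scale 11 fell and 3 rose (median -0.24), and 1 rose with scaling by library totals only and with length and GC trends both removed. The list was drawn up with the fall of Cd79a known and is not independent evidence of its direction.

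The homing receptor Ccr7 went from 3.78 ± 0.527 to 1.49 ± 0.280 CPM (SD, n = 3 each), a log2 fold change of -1.34 (edgeR, adjusted p = 1.99e-05). The tetraspanin Cd37 (-0.93), the inhibitory co-receptor Cd72 (-1.38), the IgM receptor Fcmr (1.03 to 0.336 CPM on average, tested only through wild-type), the low-affinity IgE receptor Fcer2a (-0.92) and the transcription factor Spib (-0.89), which M cells of the follicle epithelium also use, fell too. These genes passed under all 18 alternatives in which they could be tested, though Fcmr entered the reported fit only through wild-type. Plcg2 (-0.50), a phospholipase that relays receptor signals, fell and lost its call on the log2(TPM + 1) scale (adjusted p = 0.0691).

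Of the 27 tested genes of the list 11 did not pass, and those abundant in these libraries were among them. Cd74, the invariant chain of antigen presentation, was at 57.1 ± 2.31 and 54.6 ± 5.32 CPM (log2 fold change -0.06, adjusted p = 0.409). Swap70 was at 53.3 and 54.3 CPM on average (0.02) and the kinase gene Lyn at 43.1 and 46.3 CPM (0.11). Epithelial or myeloid cells also express these 3 genes. Scarce B cell genes failed to pass too, here named after their values were seen. Ebf1 lay at 0.15 (edgeR, adjusted p = 0.697) and Cd40, tested only through the Git2-knockout group, at -0.004 (0.993). Btk (-0.20, adjusted p = 0.587), Bank1 (-0.43, 0.261) and Cr2 (-0.51, 0.286) were lower without passing.

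**Figure D3:**
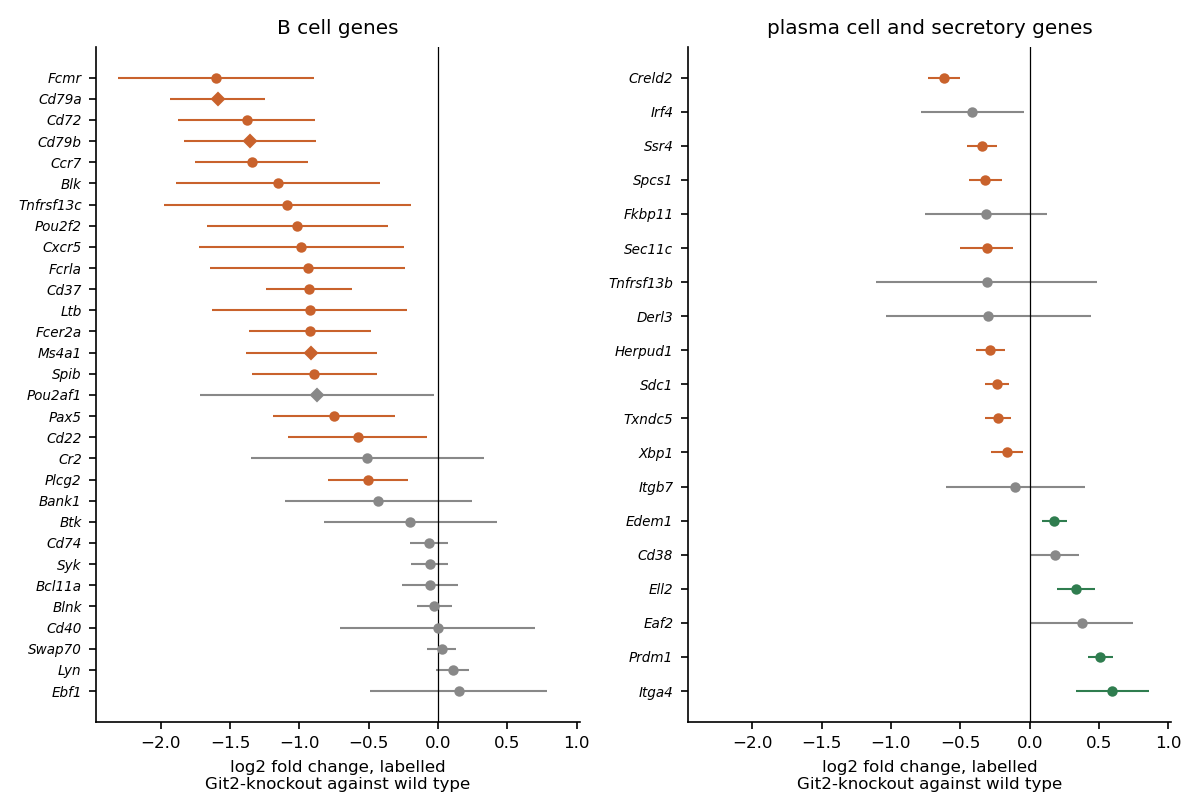
Log2 fold change with its 95% interval for tested B cell genes (left, members as diamonds) and tested genes of the plasma cell list (right), orange for falls, green for rises and grey for genes that did not pass an adjusted p of 0.05. 1 B cell gene not reported here is left out. Cd79a lies at -1.59 and Ccr7 at -1.34, whereas the plasma cell list runs from -0.62 to 0.60.

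The wider plasma cell list was mixed. Of 19 tested genes 8 fell and 4 rose, with a median log2 fold change of -0.23, while 27.4% of all tested genes fell and 29.6% rose. On the log2(TPM + 1) scale 4 fell and 6 rose (median -0.07), and with length and GC trends both removed 7 fell and 1 rose. Prdm1, the regulator that turns B cells into plasma cells and that also acts in enterocytes of the suckling gut, rose from 103.97, 105.2 and 102.8 CPM in wild-type to 145.8, 152.4 and 145.9 CPM (0.51, edgeR, adjusted p = 6.65e-08). Creld2 (-0.62) and Herpud1 (-0.28), genes of endoplasmic reticulum stress, fell, and Prdm1, Creld2 and Herpud1 passed under all 19 alternatives. Ssr4 (-0.34) and Spcs1 (-0.32), of protein entry into the endoplasmic reticulum, fell and lost their calls with the length trend removed (adjusted p = 0.280 and 0.0911), and Ssr4 lay at 0.01 with length and GC trends both removed.

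Sdc1, the plasma cell surface marker CD138, which epithelia also express, fell (-0.23) and lost its call with the GC trend removed (adjusted p = 0.132). The protein disulfide isomerase Txndc5 fell (-0.23) and lost it on the log2(TPM + 1) scale. The elongation factor Ell2 rose (0.33) and lost its call with the GC trend removed (adjusted p = 0.0704). Cd38 (0.18), Eaf2 (0.37) and Fkbp11 (-0.32) did not pass. The plasma cell regulator Irf4, named after its values were seen, was at 2.68 ± 0.169 and 2.02 ± 0.232 CPM (-0.41, adjusted p = 0.0543). Secretory and absorptive epithelium also expresses most of these genes.

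Germinal centre genes gave little signal. The expression filter removed 5 of 9 genes of this list. Of the 4 tested, Bcl6 (0.22) and Basp1 (0.85) rose, as did 29.6% of all genes tested. Bcl6 lay at 0.01 with the length trend removed (adjusted p = 0.877), and both calls were lost with DESeq2 (adjusted p = 0.120 for Bcl6 and 0.102 for Basp1). Bcl6 also lost its call without wild-type replicate 2 (0.0512) and without Git2-knockout replicate 3 (0.0833). Fas (0.19) and S1pr2 (-0.02) did not pass. Of 14 immunoglobulin and surrogate light chain genes listed, Vpreb1 alone was in the table, with 0 to 5 reads, and antibody heavy and light chain genes are not analysed here.

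Calls among signals that attract B and plasma cells went in both directions, as they did over all genes tested. Of 10 tested genes of attraction, survival and IgA induction 4 fell and 3 rose, with a median log2 fold change of -0.22. Over all genes tested 27.4% fell and 29.6% rose. Ccl25, the small intestinal chemokine that IgA plasma cells follow, fell from 103 ± 2.01 to 76.3 ± 2.75 CPM (-0.43, edgeR, adjusted p = 1.04e-06), and passed under all 19 alternatives. Ccl28, the mucosal chemokine for the same cells, rose from 15.3 ± 0.624 to 22.6 ± 1.6 CPM (0.56) and lost its call with the GC trend removed (adjusted p = 0.0612). The lymphotoxin receptor Ltbr (-0.28), the follicle chemokine Ccl20 (-0.40) and Tnfsf13 (-0.75), which encodes the plasma cell survival factor APRIL, fell.

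Ccl21a (1.46), a lymphoid stromal chemokine with near-identical gene copies that can split its reads, and Cxcl12 (0.93) rose. Ccl21a passed the expression filter only through the Git2-knockout group, where it was high. Cxcl12 lost its call when Git2-knockout replicate 2 was left out (adjusted p = 0.0557) and with DESeq2 (0.0527). Tnfsf13 lost it without replicate 2 of wild-type (0.0657), without replicate 2 of the second group (0.0574) and with DESeq2 (0.0955). Ccl20 lost it when Git2-knockout replicate 3 was left out (0.0586) and lay at -0.12 with the length trend removed. Ltbr lost it with length and GC trends both removed (0.139). Aldh1a1 (0.01), Tgfb1 (-0.17) and the B cell survival factor gene Tnfsf13b (-0.28) did not pass. Cxcl13, the chemokine that draws B cells into follicles, had 0.98 to 7 reads and was not tested.

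The epithelium over lymphoid follicles contains M cells, which sample antigen. Gp2, their uptake receptor, had 0 to 3 reads in each library and Sox8, a regulator of M cell maturation, 1 to 3 reads, both too few to test. Of 10 tested genes of the M cell list 3 fell and 2 rose, beside 27.4% and 29.6% of all genes tested. The list's median log2 fold change was 0.04. Pglyrp1 (-0.85) and Marcksl1 (-0.44) fell and Anxa5 (0.24) and Tnfaip2 (0.89) rose in each alternative in which they were tested, and Prnp (-0.02), Tnfrsf11a (0.10) and Ccl9 (0.15) did not pass. Ccl20, described above, belongs to this list too.

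Markers of other cell types were measured beside the B cell genes, since bulk RNA cannot tell fewer cells of a type from less RNA per cell. Of 9 tested general leukocyte genes 2 fell and 1 rose, with a median log2 fold change of -0.29. For this and the following lists, the shares over all genes tested were 27.4% falling and 29.6% rising. With length and GC trends both removed 0 fell and 0 rose. Coro1a (-0.56) and Cd52 (-0.68) fell, and both lost their calls with length and GC trends removed (adjusted p = 0.0520 and 0.487). Ptprc, the leukocyte antigen CD45, rose from 8.07 ± 1.23 to 10.1 ± 0.537 CPM (0.33, edgeR, adjusted p = 0.0186). Ptprc lost its call without replicate 2 or 3 of either group, and lay at -0.06 with the GC trend removed and at -0.17 with both trends removed. The summed level of the list was 41.2 to 43.0 CPM in wild-type and 38.1 to 39.4 CPM in the other group.

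T cell markers were scarce. Of 13 listed 5 were tested, of which 1 fell and 1, tested only through the Git2-knockout group, rose. Lck, a kinase of the T cell receptor, fell (-0.48) and kept its call under 5 of 18 alternatives. The defining receptor genes Cd3d, Cd3e and Cd3g had at most 7.17 reads in any library. The summed level of the whole T cell list was 7.77 to 8.23 CPM in wild-type and 7.60 to 8.06 CPM in the Git2-knockout group, overlapping ranges. Of 11 tested macrophage and dendritic cell genes 4 rose (Itgax, C1qb, and, not with DESeq2, C1qa and Fcgr3) and 0 fell. With the GC trend removed 5 rose and 1 fell, and with length and GC trends both removed 6 rose and 1 fell. Fcgr3 passed the expression filter only through the Git2-knockout group and lost its call without Git2-knockout replicate 3 (adjusted p = 0.0632). The sum of the list went from between 42.5 and 44.5 CPM to between 53.1 and 53.6 CPM.

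Stromal genes moved opposite to the B cell genes. All 8 endothelial markers rose, with a median log2 fold change of 1.11, and their sum was 23.1 to 23.2 CPM in wild-type and 48.3 to 54.6 CPM in the other group. All 6 tested fibroblast markers rose, with a median of 1.69, from 31.5 to 35.0 CPM summed in wild-type to 109 to 113 CPM. No marker of these lists was at 0 in all libraries. The part of any of these cell types, of library depth or of the epithelial markers in the fall of the B cell genes and of Pigr was not tested.

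**Figure D4:**
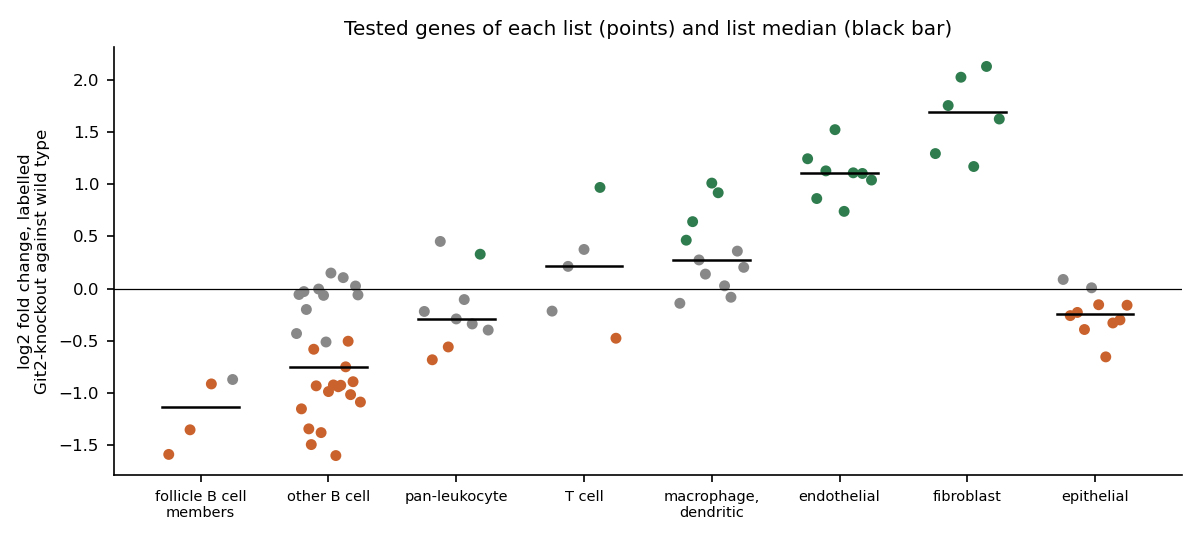
Log2 fold change of each tested gene (points; orange fell, green rose, grey did not pass) in 8 lists, with the list median as a black bar. The bars lie at -1.13 for the 4 follicle members and -0.75 for the other B cell genes (-1.35 and -0.47 without genes that passed the filter only through wild-type), at 1.11 for endothelial and at 1.69 for fibroblast markers.

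The genes whose pattern over the 6 libraries lay closest to that of Cd79a, by Euclidean distance between centred log2 CPM, were Lrrc26 (0.229), Slc39a4 (0.271), Crip1 (0.274), Adora2b (0.288) and Aldh3b1 (0.310). Lrrc26, a channel subunit of secretory epithelium, held 12.8, 14.2 and 13.7 CPM in wild-type, against 5.52, 4.51 and 4.12 CPM. The zinc transporter gene Slc39a4 was at 285, 301 and 317 CPM and at 115, 106 and 114 CPM. Cd79b, Ms4a1 and Pou2af1 were not among these 5. At 4 to 54 reads a library their counting error adds to the distance, so a different course was not shown.

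For Pigr the nearest named genes were Dmbt1 (0.0953), Asah2 (0.101), Sectm1b (0.146), Sypl2 (0.155) and Mcc (0.160). A predicted gene model, left unnamed, lay closer than Mcc. Dmbt1, a secreted scavenger receptor of mucosal surfaces, was at 224, 227 and 208 CPM in wild-type and at 91.0, 110 and 110 CPM in the Git2-knockout group. Asah2, the neutral ceramidase of the brush border, was at 123, 120 and 113 CPM and at 51.2, 56.1 and 56.5 CPM. Dmbt1 and Asah2 were picked for their closeness to Pigr over these libraries. That they share its lowest library, replicate 1 of the second group, therefore follows from the selection.

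Across the other ways of processing the data, Cd79a, Cd79b, Ms4a1 and Pigr stayed below wild-type and past the threshold wherever they could be tested. The log2 fold change of Cd79a ran from -1.72 to -1.23, that of Cd79b from -1.63 to -0.91, that of Ms4a1 from -1.30 to -0.38 and that of Pigr from -1.25 to -0.94.

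**Figure D5:**
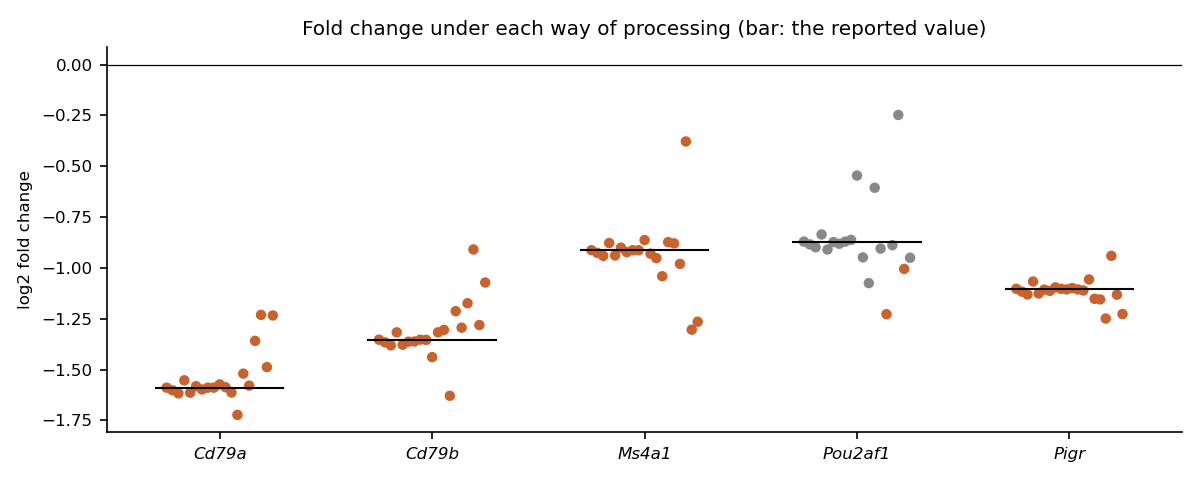
Log2 fold change of the 5 tested members under the reported processing (black bar) and every alternative (points; orange where the adjusted p was under 0.05, grey otherwise). All points lie below 0, and Pou2af1 is orange in 2 alternatives.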

How the data were processed

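Poly(A) RNA was captured on oligo(dT) and sequenced, per the labels' protocols. HISAT, Bowtie2 and RSEM (no versions) and the build GRCm39 are named, per the submitters' processing notes. No source used here gives the strand setting or the gene annotation. Read counts are deposited per gene and library and were taken as estimated counts, since 58.9% to 69.2% of values per library are not whole. TPM and FPKM are deposited beside them, per the file headers. FPKM served only to derive transcript length.

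Estimated counts were rounded and tested in R 4.3.3 with edgeR 4.0.16: filterByExpr (minimum count 10), TMM scaling, robust glmQLFit and glmQLFTest, two-sided, no covariates, Benjamini-Hochberg adjustment over all 13558 genes tested, threshold 0.05. Standard errors are the log2 fold change over the square root of F. Groups and replicate numbers came from the titles. Chi-square per degree of freedom between replicates was 5.05 and 6.79 for pairs with Git2-knockout replicate 1 and 1.59 to 2.77 for the others. Between groups it was 28.2 to 40.2. Each library was counted, though these values cannot tell separate animals from technical replicates. Length covered 98.7% and GC content (GENCODE M21 transcripts, GRCm38) 97.9% of tested genes. The fits were tested on simulated data.

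Members and lists were chosen with earlier results of these data known. A few named items are not reported here. All members are named, with up to 8 called genes per pathway list by smallest p, 3 abundant uncalled ones, up to 4 per cell type list and 5 nearest patterns. Predicted gene models were left out of the nearest patterns. Alternatives were other scalings, filters, DESeq2 1.42.0, limma 3.58.1, a replicate block, single libraries left out and trend removal by loess (span 0.5). Removal of the GC trend, alone or with length, was added after the data were seen.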

Additional observations from a re-analysis of the deposited data

How the results depend on the processing

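The 5 tested members kept the sign of their change in each alternative in which they were tested, and the count of 0 rising members never changed. With a filter of 5 CPM in 3 libraries 1 member fell, because Pigr alone was still tested, and with each other alternative 4 or 5 did. Over all genes, 1894 fell by limma-trend on log2(TPM + 1), against 3712, and 2349 rose with length and GC trends both removed, against 4013; the cause was not tested. With the replicate number as a block 3863 genes rose, 3578 fell and 4 members fell, and the B cell list had 15 falls against 16. Among the genes named, Lck lost its call with the block (adjusted p = 0.0659), and no member's call changed. Same-numbered libraries did not deviate together (correlations of 0.041, -0.0011 and 0.050), so the numbers were not taken to pair them, and not every library correlated best with its own number. The Jchain to Cd79a difference ran from 1.31 to 2.32 and the Pigr to Cdh1 difference from -1.22 to -1.16 with single libraries left out, and with TPM they were 1.62 and -1.19. In the B cell list 16 falls became 8 of 28 tested with DESeq2, 11 on the log2(TPM + 1) scale and 1 of 7 tested with 5 CPM in 3 libraries. Estimated reads per library were 4 to 21.98 for Pou2af1 and at most 9.01 for Jchain, Mzb1 and Tnfrsf17, and their counting error is wide.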
